A study of Mus musculus with 6 samples.

Results

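Core splicing factors and heterogeneous nuclear ribonucleoproteins (hnRNPs) were examined in cultured mouse muscle stem cells (MuSCs) across all 6 libraries of the series. The members were chosen by gene symbol: every row of the deposited table whose symbol starts with Srsf, Sf3a, Sf3b, Snrp, Hnrnp, Prpf or U2af was taken, which gave 72 of 18943 genes. Of these, 68 are protein coding and 4 are processed pseudogenes (Hnrnpa1l2-ps, Hnrnpa1l2-ps2, Snrpert and Srsf3-ps). No measured value entered the choice of a gene, but the 7 families were proposed with earlier results of these data known, so that the counts below describe the families and are no independent evidence about them. The cells were MuSCs purified by fluorescence-activated cell sorting from WT C57BL/6 mice 8 weeks old and kept in culture for 5 days. One group received DMSO, the solvent, another the peptide endothelin-3 (ET-3), and the third the peptide neurotensin (NT). ET-3 and NT are ligands of G protein-coupled receptors. Each group had 2 libraries here, and the study describes more than these. The labels give 100 nM for both ligands, whereas the methods of the study give higher doses. The study calls its RNA-seq replicates biological samples. The sources used here do not say whether the 2 libraries of a group came from separate mice or cultures. The tests thus measure the spread between these libraries, which may be technical.

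Splicing removes introns from pre-mRNA through the spliceosome, which is built anew on each intron from small nuclear ribonucleoproteins (snRNPs). U1 recognises the 5′ splice site, the U2AF heterodimer reads the end of the intron, the U2 snRNP with its SF3A and SF3B complexes binds the branch site, and the U4/U6.U5 tri-snRNP with the PRPF proteins brings in the catalytic core. SR proteins (Srsf genes) mostly promote the use of exons, and hnRNPs coat nascent transcripts and often oppose it. In MuSCs, exit from quiescence is known to come with growth in RNA content, and differentiation of myoblasts with a large change in splice choice. The measurements here are read totals per gene. They hold no information on isoforms, on splicing itself or on protein.

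The 6 libraries held between 3628891 and 5396233 reads on genes, as recovered from the deposited values, and listed between 17057 and 17678 genes above 0. The deposited value of a gene is its read count multiplied by 1 factor per library, called scaled reads below. At 1000 scaled reads, counting error alone is between 2.79% and 3.45% in a library. The NT libraries were the most deeply sequenced, with 4986598 and 5396233 reads, against 3628891 and 3931862 for ET-3. The mean chi-square per gene between the libraries of a group, which is near 1 where they differ by counting error alone, was 1.45 in DMSO, 0.891 under ET-3 and 0.953 under NT. The treated libraries of a group thus differed by no more than sampling noise, and counts of calls are also given after averaging them into 1 sample per ligand. The DMSO libraries then set the spread alone, and the lone treated samples are assumed to vary as they do.

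All 9 MuSC marker genes were listed, of which 8 were tested, with 2 higher and 3 lower under ET-3 and 2 higher and 6 lower under NT. Pax7 stood at 857 and 1070 scaled reads in DMSO and between 1599 and 1754 in the treated libraries, and Calcr was at 3 or less everywhere. The levels of marker genes moved with the groups. The summed level of 10 genes of myogenic differentiation was 33590 and 36901 in DMSO and between 1814 and 2327 under the ligands, with 10 of 10 lower in both comparisons. The summed level of 10 proliferation genes was 7443 and 7840 in DMSO and between 10362 and 11679 under the ligands, with 10 of 10 higher under ET-3 and 9 of 10 under NT. Among markers of other cell types, the smooth muscle and pericyte list summed to 2175 and 2424 in DMSO and to between 723 and 797 under the ligands, and the Schwann cell list to 137 and 153 and to between 617 and 682, most of it from Ngfr. The endothelial list went from 24 and 12 to between 85 and 107 in sum. Much of this was Tek, at 2 and 1 in DMSO and between 42 and 70 under the ligands. The macrophage list went from 25 and 32 to between 51 and 77. Its Cd14 was called higher under both ligands, and Cd68 and Csf1r in neither comparison. The fibroadipogenic list went from 267 and 279 to between 99 and 127, but its genes did not move together. Under ET-3 1 was called higher and 2 lower, and under NT 2 and 2. Col1a1 went from 148 and 146 to 8 or less, whereas Ly6a was called higher under both ligands. The part of these shifts in the results below was not tested. In bulk RNA, fewer cells of a type and less RNA per cell cannot be told apart.

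Of the 72 members, 67 passed the filter of a mean of 5 scaled reads and were tested, 66 of them protein coding. The remaining 5 were near the detection limit. Srsf12, a paralog of Srsf10, was at 8 and 5 in DMSO, at 0 and 0 under ET-3 and at 1 and 1 under NT. U2af1l4, a paralog of U2af1, was at 3 and 5, at 1 and 1, and at 3 and 5, and the pseudogenes Hnrnpa1l2-ps, Hnrnpa1l2-ps2 and Srsf3-ps reached 6 at most.

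Under ET-3, most core splicing factors and hnRNPs rose, by modest amounts. With limma on log2(value + 1) and Benjamini-Hochberg adjustment over all 13921 tested genes, 49 of the 67 tested members were called higher at an adjusted p of at most 0.05 and 4 were called lower, against 30.6% higher and 33.2% lower over all tested genes. The median log2 fold change was 0.25 over the members and -0.01 over all genes, and single members lay between -0.91 and 0.71. Both ET-3 libraries lay above both DMSO libraries for 57 members and below them for 5, against 38.9% above and 40.7% below over all genes. No member reached a 2-fold change with an adjusted p of at most 0.05, a rule that 21.5% of all genes passed. Summed over the members, the share of all scaled reads was 1.05% and 1.06% in DMSO, 1.33% and 1.29% under ET-3, and 1.21% and 1.18% under NT.

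Under NT the same families moved less and in both directions. Of the 67 tested members, 22 were called higher and 9 lower in the limma fit, against 29.7% higher and 32.5% lower over all genes, so that the share of members called higher lay near that of all genes. The median log2 fold change was 0.08 over the members and -0.01 over all genes, with a range from -0.56 to 0.74. Both NT libraries lay above both DMSO libraries for 34 members and below them for 15, against 38.9% and 41.7% over all genes. Again 0 members passed the 2-fold rule by limma, which 20.5% of all genes passed. All 22 members called higher under NT were also called higher under ET-3, and 4 members were called lower under both (Snrpn, Hnrnph3, Prpf18 and Prpf40b). Both comparisons share the same 2 DMSO libraries, so that this overlap is not independent.

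After averaging the treated libraries of each ligand, limma called 13 members higher and 1 lower under ET-3, against 10.5% and 18.2% of all genes. Under NT 1 member, Sf3a2, remained higher and 0 lower by limma, against 9.16% and 15.7%. The calls also depend on how the libraries are put on a common scale. When library totals were made equal, the median over all genes moved to 0.08 under ET-3 and 0.10 under NT, and that over the members to 0.34 and 0.19. On that scale 56 members were higher and 4 lower under ET-3 (36.7% and 29.3% of all genes), and 37 were higher and 1 lower under NT (37.2% and 26.6%). That 1 was Srsf5. With the upper quartile of each library made equal, 4 members were lower under NT. With 1 library left out at a time, between 13 and 20 members were higher and between 1 and 6 lower under NT, the fewest without the first NT library (13 higher) and without the second (1 lower). Read coverage moved with the calls as well. Among the 2889 genes with a coverage between the quartiles of the members, 0.0897 and 0.201 reads per exonic base, 42.6% were higher and 28.2% lower under ET-3, and 36.9% and 32.4% under NT. Of the 33 members in this range, 24 were higher and 0 lower under ET-3, and 13 higher and 4 lower under NT.

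**Figure D1:**
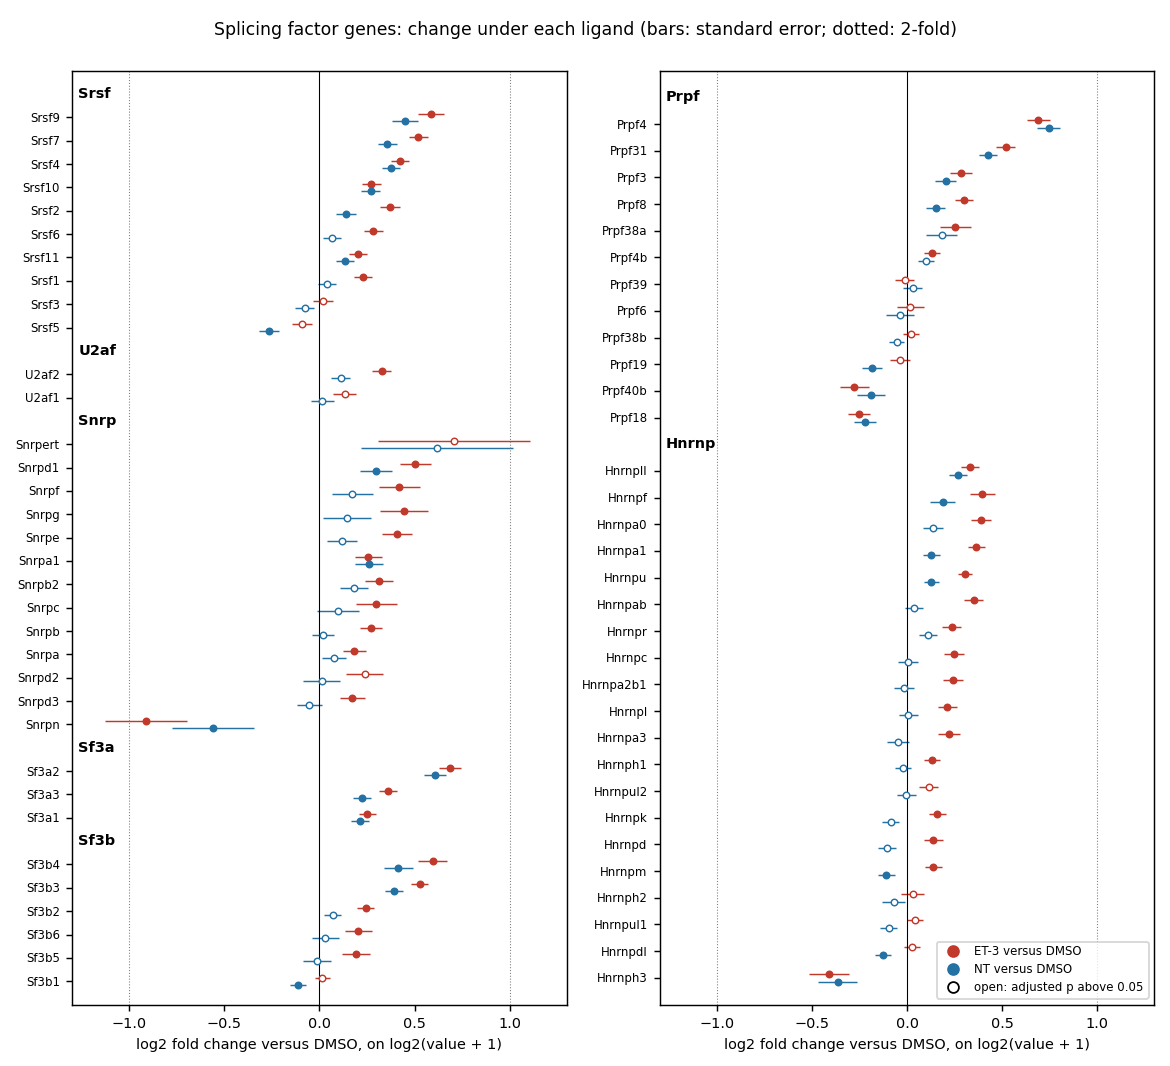
Log2 fold change of 66 of the 67 tested members under ET-3 (red) and NT (blue) against DMSO, grouped by symbol family, with bars of 1 standard error and open circles where the adjusted p of limma exceeded 0.05. Most red points lie to the right of 0, the blue points lie closer to 0, and no called member reaches the dotted 2-fold lines.

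**Figure D2:**
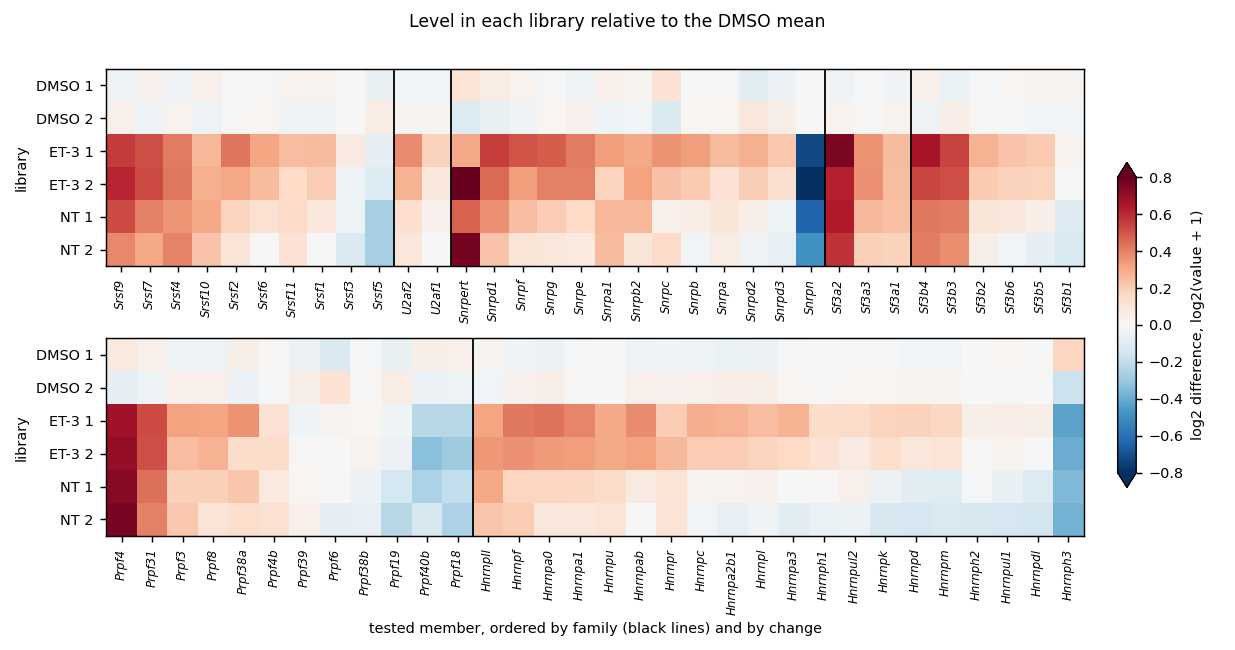
Level of 66 of the 67 tested members in each library as the log2 difference from the mean of the DMSO libraries, with families separated by black lines. The median over all 67 was -0.01 and 0.01 in the DMSO libraries, 0.28 and 0.21 in the ET-3 libraries and 0.09 and 0.06 in the NT libraries.

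Among the SR proteins, 8 of 10 tested genes rose under ET-3 and 0 fell, and under NT 6 rose and 1 fell. The counts of this and the following families are to be read against the shares over all tested genes, 30.6% higher and 33.2% lower under ET-3 and 29.7% and 32.5% under NT. The medians of the log2 fold changes were 0.28 and 0.14. Srsf9, a short SR protein gene on chromosome 5 (115327177 to 115333080, plus strand, GRCm38), stood at 238 and 251 scaled reads in DMSO, at 361 and 374 under ET-3 and at 351 and 319 under NT. Every treated library was above both DMSO libraries. The log2 fold change reached 0.59 ± 0.069 (SE) under ET-3 (adjusted p = 4.03e-05, limma) and 0.45 ± 0.069 under NT (adjusted p = 2.65e-04, limma). Srsf7, which has a zinc knuckle beside its RNA recognition motif, stood at 644 and 616 in DMSO, at 902 and 906 under ET-3 and at 833 and 782 under NT, with log2 fold changes of 0.52 and 0.36. Srsf4 rose in the same way, by 0.42 and 0.38, but 43.0% of its exonic bases are shared with a transcript on the opposite strand. Srsf2, the SR protein with the highest level per length in its family, stood at 887 and 901, at 1205 and 1109, and at 1012 and 959. The groups did not overlap, and the log2 fold changes were 0.37 and 0.14, with adjusted p of 1.43e-04 and 0.0392 by limma.

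Srsf5 differed from the rest of its family. It stood at 640 and 692 scaled reads in DMSO, at 629 and 618 under ET-3 and at 554 and 554 under NT, so that NT was below both other groups. The log2 fold change was -0.26 ± 0.052 under NT (adjusted p = 1.40e-03, limma) and -0.09 ± 0.052 under ET-3 (adjusted p = 0.141, limma). The direct difference between the ligands did not pass (log2 fold change -0.17, adjusted p = 0.111). Srsf3, which promotes exon inclusion and mRNA export, was called in neither comparison, with log2 fold changes of 0.02 and -0.08.

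Of the 2 tested U2AF genes, U2af2 rose under ET-3, and neither was called under NT. U2af2, the large subunit that binds the polypyrimidine tract, stood at 733 and 756 scaled reads in DMSO, at 966 and 904 under ET-3 and at 818 and 791 under NT. The groups were separate from each other, with a log2 fold change of 0.33 under ET-3 (adjusted p = 2.36e-04, limma) and 0.11 under NT (adjusted p = 0.0746). U2af1, the small subunit that contacts the AG at the 3′ splice site, had log2 fold changes of 0.13 and 0.02, neither called.

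The Snrp family codes for the Sm ring shared by most spliceosomal snRNPs and for proteins of U1 and U2. Under ET-3, 10 of its 13 tested genes rose and 1 fell, with a median log2 fold change of 0.30, whereas under NT 2 rose and 1 fell, with a median of 0.12. Both NT counts are smaller shares of the family than the 29.7% and 32.5% of all tested genes. When library totals were equal, 6 were higher and 0 lower under NT. Of the Sm ring genes, Snrpd1 had 198 and 183 scaled reads in DMSO, 280 and 261 under ET-3 and 246 and 223 under NT. Its groups did not overlap, and it was called higher in both comparisons (log2 fold changes 0.50 and 0.30, adjusted p 4.07e-04 and 0.01, limma). Snrpb, Snrpd3, Snrpe, Snrpf and Snrpg were called higher under ET-3 alone, by log2 fold changes of 0.27, 0.17, 0.41, 0.42 and 0.45, and Snrpd2 was not called (0.24, adjusted p = 0.0546, limma). For Snrpf, 85.4% of the exonic bases overlap genes on the opposite strand. The methods of the study leave out reads that overlap several genes, so that its count may be incomplete. Snrpa and Snrpc of U1 and Snrpb2 of U2 were called under ET-3 alone, and Snrpa1 of U2 under both ligands with a log2 fold change of 0.26 in each. A call under 1 ligand and not the other does not show that the ligands differ. Between NT and ET-3, 0 Snrp genes were called.

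Snrpn moved against its family. It encodes SmN, a close relative of SmB that is known for its imprinted expression from the paternal allele. Snrpn stood at 55 and 55 scaled reads in DMSO, at 33 and 25 under ET-3 and at 35 and 39 under NT, and every treated library was below both DMSO libraries. Its log2 fold changes were the lowest of the members, -0.91 ± 0.22 under ET-3 (adjusted p = 3.86e-03, limma) and -0.56 ± 0.22 under NT (adjusted p = 0.0433, limma). With the treated libraries averaged, its log2 fold change under ET-3 was -0.90. Its counts are low, so that counting error is wide, and 34.1% of the exonic bases of Snrpn are shared with Snurf and other annotated genes. With equal library totals the NT value was -0.45 and was not called (adjusted p = 0.0918, limma). Snrpert, a processed pseudogene, had 6 and 5 scaled reads in DMSO, 7 and 13 under ET-3 and 8 and 10 under NT. Its fold changes were called in neither comparison.

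The SF3A complex was the only family with every tested gene called higher under both ligands, 3 of 3. Sf3a2, which lies on chromosome 10 (80798198 to 80804924, plus strand), stood at 354 and 368 scaled reads in DMSO, at 608 and 557 under ET-3 and at 562 and 539 under NT. All treated libraries lay above both DMSO libraries, and the ligands overlapped. The log2 fold change came to 0.69 ± 0.059 under ET-3 (adjusted p = 4.22e-06, limma) and 0.61 ± 0.059 under NT (adjusted p = 1.09e-05, limma), and both calls held after averaging the treated libraries (adjusted p 0.0310 and 0.0362). An opposite-strand neighbour, Plekhj1, shares 16.1% of its exonic bases. Sf3a3 rose by log2 fold changes of 0.36 and 0.23 and Sf3a1 by 0.25 and 0.21.

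In the SF3B complex, which clamps the branch site and holds Sf3b1 as its scaffold, 5 of 6 genes rose under ET-3 and 2 under NT, where 1 fell. Sf3b4, an RNA-binding subunit that contacts the pre-mRNA upstream of the branch site, stood at 186 and 175 scaled reads in DMSO, at 285 and 262 under ET-3 and at 242 and 240 under NT. The order DMSO, NT, ET-3 held in every library, and the log2 fold changes were 0.60 ± 0.076 and 0.42 ± 0.076 (adjusted p 7.31e-05 and 8.91e-04, limma). Sf3b3 rose by log2 fold changes of 0.53 and 0.39. Sf3b1 itself stood at 1770 and 1715 in DMSO, at 1773 and 1748 under ET-3 and at 1621 and 1600 under NT. Only the NT libraries were set apart, with a log2 fold change of -0.11 (adjusted p = 0.0330, limma), against 0.01 under ET-3 (adjusted p = 0.766). With equal library totals the NT value was -0.0004.

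The Prpf family splits by role. Under ET-3, 7 of 13 genes rose and 2 fell, and under NT 5 rose and 3 fell, with medians of 0.13 and 0.10. Prpf4, a U4/U6 protein on chromosome 4 (62408797 to 62426990, plus strand), stood at 350 and 315 scaled reads in DMSO, at 530 and 542 under ET-3 and at 551 and 563 under NT. The treated libraries lay far above DMSO and NT lay above ET-3, with log2 fold changes of 0.69 ± 0.061 and 0.74 ± 0.061 (adjusted p 5.08e-06 and 3.16e-06, limma). The direct difference between the ligands was 0.06 and was not called (adjusted p = 0.670, limma). With the treated pairs averaged, the adjusted p was 0.0519 under ET-3 and 0.0511 under NT. Prpf31, which holds the U4 and U5 parts of the tri-snRNP together, stood at 508 and 482, at 711 and 707, and at 673 and 656, with log2 fold changes of 0.52 and 0.42. The other tri-snRNP proteins moved less. Prpf3 rose by 0.28 and 0.20, Prpf8, the scaffold of the catalytic core, by 0.30 and 0.15, and Prpf6 had 0.02 and -0.04 with neither called.

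The Prpf genes that fell act at other steps. Prpf18, a factor of the second catalytic step, stood at 483 and 457 scaled reads in DMSO, at 403 and 385 under ET-3 and at 409 and 395 under NT. All treated libraries were below DMSO, and the log2 fold changes were -0.25 ± 0.057 and -0.22 ± 0.057 (adjusted p 3.01e-03 and 6.30e-03, limma). Prpf40b, a U1-associated factor, stood at 325 and 305, at 270 and 249, and at 264 and 288, with log2 fold changes of -0.28 and -0.19. Prpf19, the ubiquitin ligase of the complex that carries its name, stood at 892 and 965, at 907 and 897, and at 840 and 794. ET-3 overlapped DMSO and only NT was lower, with a log2 fold change of -0.18 (adjusted p = 0.0114, limma) against -0.04 under ET-3 (adjusted p = 0.521, limma). With equal library totals the NT values of Prpf18, Prpf40b and Prpf19 were -0.11, -0.08 and -0.07, none of them called.

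**Figure D3:**
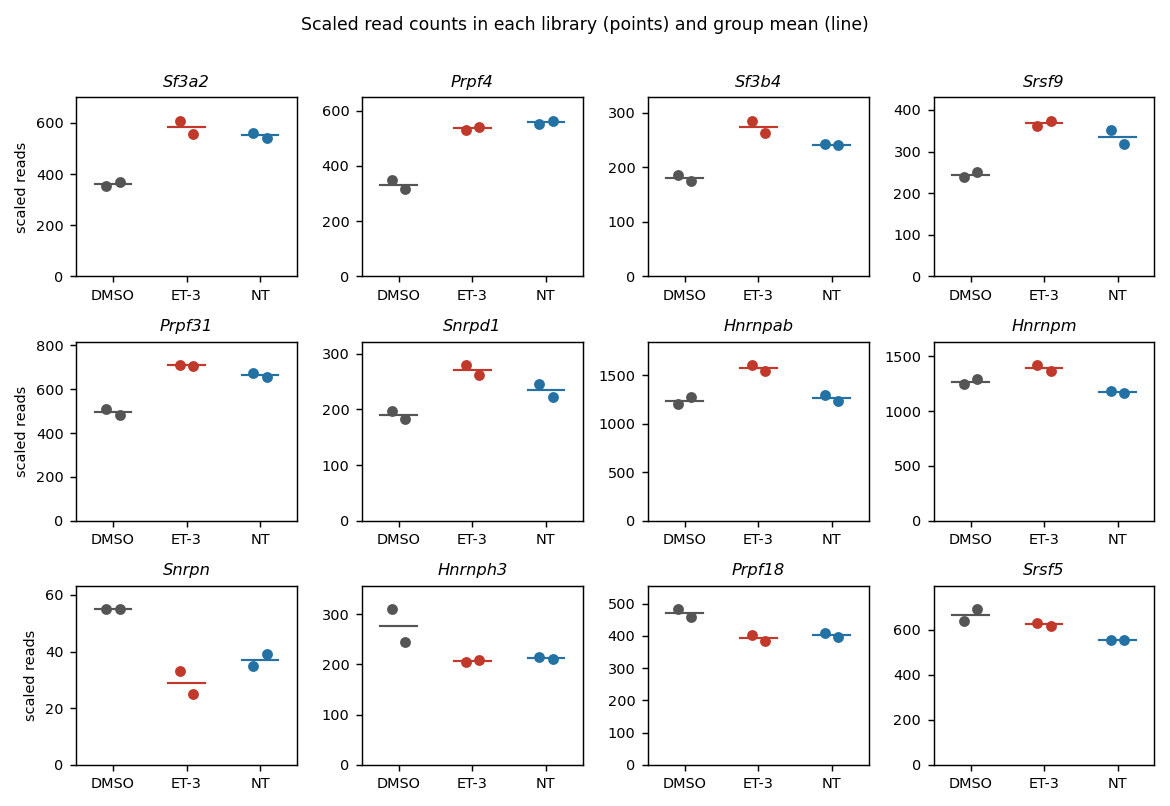
Scaled reads of 12 members in each library (points, 2 per group) with the group mean (line), on axes that start at 0. Sf3a2, Prpf4, Sf3b4, Srsf9, Prpf31 and Snrpd1 were higher in all treated libraries, Hnrnpab and Hnrnpm were higher under ET-3 than under NT, and Snrpn, Hnrnph3, Prpf18 and Srsf5 were lower under NT than in DMSO.

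Among the hnRNPs, 15 of 20 tested genes rose under ET-3 and 1 fell, with a median log2 fold change of 0.22. Under NT 4 rose and 3 fell, with a median of -0.01, and both counts are smaller shares of the family than the 29.7% and 32.5% of all tested genes. At equal library totals 8 rose and 0 fell, with a median of 0.10. Hnrnpab, the hnRNP with the highest level per length, stood at 1202 and 1275 scaled reads in DMSO, at 1606 and 1547 under ET-3 and at 1299 and 1237 under NT. ET-3 was above all other libraries and NT overlapped DMSO, with log2 fold changes of 0.35 ± 0.048 (adjusted p = 1.26e-04, limma) and 0.03 ± 0.048 (adjusted p = 0.561, limma). An opposite-strand gene, Phykpl, shares 29.1% of its exonic bases. Hnrnpa1, the best known repressor of exon inclusion, stood at 801 and 810, at 1057 and 1016, and at 902 and 858. Its groups were separate, and it was called higher under both ligands (0.36 and 0.13, adjusted p 7.31e-05 and 0.0363, limma). Processed copies of Hnrnpa1 exist in the genome, and reads that align to several places were not counted.

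Hnrnpll, which is known to direct alternative splicing in activated lymphocytes, rose under both ligands, from 655 and 635 scaled reads in DMSO to 802 and 820 under ET-3 and 800 and 752 under NT. All treated libraries lay above DMSO (log2 fold changes 0.33 and 0.27, adjusted p 2.10e-04 and 9.30e-04, limma). Hnrnpf and Hnrnpu rose under both ligands as well, by 0.39 and 0.19 and by 0.30 and 0.13. Hnrnph3 was the one hnRNP that fell under both. It lies on chromosome 10 (63014664 to 63024217, minus strand) and stood at 310 and 244 in DMSO, at 204 and 209 under ET-3 and at 215 and 211 under NT. The treated libraries were close together, whereas the DMSO libraries differed from each other by more than the nearer one differed from the treated libraries. The log2 fold changes were -0.41 ± 0.10 and -0.37 ± 0.10 (adjusted p 5.83e-03 and 0.0111, limma), and they were not called after averaging the treated libraries (adjusted p 0.248 and 0.285). With equal library totals the NT value was -0.25 (adjusted p = 0.0558, limma). Its relatives Hnrnph1 and Hnrnph2 had log2 fold changes of 0.13 and 0.03 under ET-3 and of -0.02 and -0.07 under NT, of which the ET-3 value of Hnrnph1 was called (adjusted p = 0.0212, limma).

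NT and ET-3 were also compared with each other, where the DMSO libraries enter only the estimate of the spread. In the limma fit 11 members were lower under NT than under ET-3 and 0 were higher, against 2.05% lower and 0.647% higher over all genes. No member passed the 2-fold rule by limma, which 0.079% of all genes passed. Of these 11, 10 were hnRNPs (Hnrnpa0, Hnrnpa1, Hnrnpa2b1, Hnrnpa3, Hnrnpab, Hnrnpc, Hnrnpd, Hnrnpk, Hnrnpm and Hnrnpu) and the other was Srsf6. Their adjusted p lay between 0.0379 and 0.0498 and their log2 fold changes between -0.31 and -0.18. Both NT libraries lay below both ET-3 libraries for 54 members and above them for 4, against 21.9% below and 27.7% above over all genes. The median log2 fold change was -0.14 over the members and 0.03 over all genes. On the scale of equal totals, 12 members were lower, against 1.97% of all genes. Leaving out any 1 of the 6 libraries left 0 members called by limma, so that all 11 calls rest on the full set.

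Hnrnpm illustrates the pattern. It stood at 1250 and 1290 scaled reads in DMSO, at 1423 and 1370 under ET-3 and at 1185 and 1168 under NT. ET-3 was above and NT below both DMSO libraries, although NT differed from DMSO by 0.003 with equal library totals. NT was lower than ET-3 by a log2 fold change of -0.25 ± 0.043 (adjusted p = 0.0379, limma). Hnrnpk, which binds cytosine-rich RNA, stood at 1239 and 1270, at 1418 and 1380, and at 1213 and 1149, with a log2 fold change of -0.24 (adjusted p = 0.0379, limma). Its NT libraries were again the lowest of the 6. Hnrnpa0, Hnrnpa2b1, Hnrnpc and Hnrnpd had log2 fold changes of -0.25, -0.26, -0.24 and -0.24 between the ligands (adjusted p 0.0424, 0.0420, 0.0443 and 0.0420, limma).

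The difference between the ligands followed read coverage over the whole table. All tested genes were put in 10 classes of equal size by coverage. In the class of highest coverage, at least 0.168 reads per exonic base, the median log2 fold change of NT against ET-3 was -0.15, and it was -0.18 for the 24 members there. In the class of lowest coverage it was 0.15, and no member lies there. In the class next to the highest it was -0.04 over all genes and -0.14 over 17 members. After removal of the trend against coverage, 0 members and 0 other genes were called by limma, 14 members and 1517 genes had an unadjusted p under 0.05 (39 and 2765 before), and the median of the members was -0.07. The 11 calls were likewise lost after averaging the treated libraries. The NT libraries are also the deeper ones, and depth, coverage and ligand cannot be told apart in these 4 libraries.

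**Figure D4:**
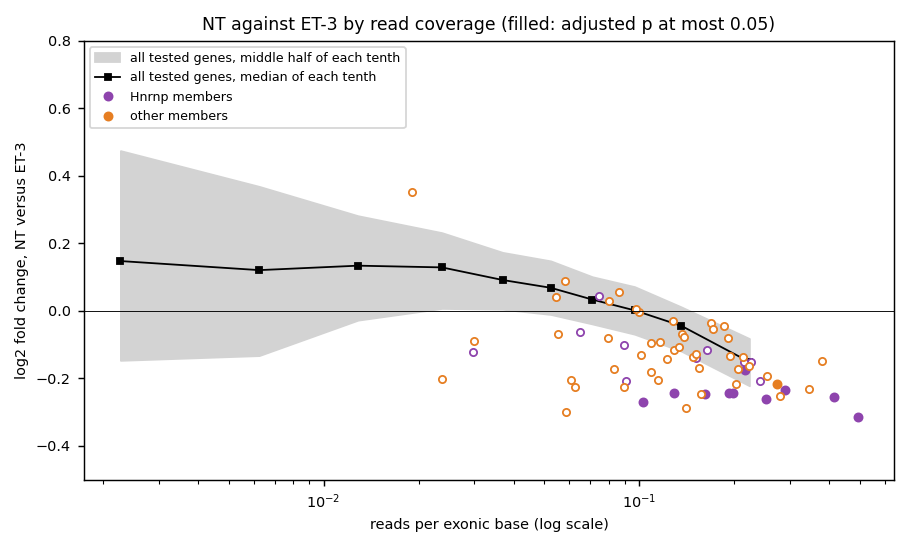
Log2 fold change of NT against ET-3 for 66 of the 67 tested members (circles, purple for hnRNPs and orange for the other families, filled where the adjusted p was at most 0.05) by reads per exonic base on a log axis, with the median (black) and interquartile range (grey) of all tested genes in each of 10 classes of coverage. The median of all genes falls from 0.15 in the lowest class to -0.15 in the highest, and most members lie below it.

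Levels were compared between members per kilobase of exon. Over the 6 libraries, the highest in each family were Hnrnpab with 489 ± 61.5 scaled reads per kb (SD, n = 6), Prpf8 with 375 ± 36.1, Srsf2 with 342 ± 42.1, Snrpb with 278 ± 28.9, Sf3a3 with 210 ± 23.6, Sf3b2 with 204 ± 16.7 and U2af2 with 201 ± 21.9. The spread includes the differences between groups. Hnrnpab was followed by Hnrnpa0 at 411 ± 52.9, and their values overlapped within 1 SD over the pooled groups. Within each group Hnrnpab had the higher mean. In DMSO, ET-3 and NT it was at 445, 567 and 456, against 362, 474 and 397 for Hnrnpa0. Among protein-coding Sm ring genes the level per kb ran from 278 for Snrpb to 58.3 for Snrpg, and Snrpn stood at 18.7. The members of 1 complex therefore did not have equal RNA levels, as far as exon length from annotation allows the comparison.

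Genes that work beside the members were counted in the same fit, in lists written from general knowledge of the spliceosome, with earlier results of these data known. Of 126 genes listed, 125 were tested, and 72 were higher and 13 lower under ET-3, while 59 were higher and 18 lower under NT. Over all tested genes the shares were 30.6% and 33.2% under ET-3 and 29.7% and 32.5% under NT. After averaging the treated libraries, 22 were higher and 4 lower under ET-3 and 14 and 5 under NT, against 10.5% and 18.2% and against 9.16% and 15.7% of all genes. The median log2 fold changes were 0.22 and 0.13. Assembly of Sm rings by the SMN complex had the highest medians of the 5 lists, 0.46 and 0.39, with 9 of 13 tested genes higher and 0 lower under each ligand. Gemin5, which recognises snRNAs for that assembly, stood at 623 and 521 scaled reads in DMSO, at 1084 and 1057 under ET-3 and at 1076 and 1050 under NT. Every treated library was well above DMSO, with log2 fold changes of 0.91 and 0.90 (called in both, though with adjusted p of 0.0626 and 0.0666 by limma after averaging the treated libraries). Snupn, the import adaptor of snRNPs, and Tgs1, which trimethylates the snRNA cap, were called in neither comparison.

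Among SR-related proteins and SR protein kinases, 10 of 23 rose and 5 fell under ET-3, and 7 rose and 5 fell under NT, where the share that rose lay near that of all genes. Of the kinases that phosphorylate SR proteins, the Srpk genes went in opposite directions. Srpk1 stood at 612 and 563 scaled reads in DMSO, at 1085 and 1070 under ET-3 and at 1048 and 1018 under NT. Srpk2 stood at 722 and 701, at 430 and 417, and at 417 and 440. Srpk3, the kinase restricted to muscle, stood at 606 and 651 in DMSO and at 1, 1, 3 and 0 in the treated libraries. The treated libraries were apart from DMSO for all 3 Srpk genes. The log2 fold changes of Srpk1 and Srpk2 were 0.88 and -0.75 under ET-3 and 0.81 and -0.73 under NT. Of the Clk kinases in the same list, Clk1 was called lower under both ligands (log2 fold changes -0.28 and -0.27). Clk4 was called lower under ET-3 alone (-0.32, against -0.21 under NT), and Clk2 and Clk3 were called in neither comparison. Srpk3 was the only gene of these lists past the 2-fold rule in either comparison, and it fell together with the differentiation genes named above. Whether that shift sets it was not tested.

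Of the other snRNP proteins, 22 of 32 rose and 2 fell under ET-3, and 18 rose and 5 fell under NT. Averaged over both ligands, Ppih and Lsm2 had the highest log2 fold changes, with 0.73 and 0.61 under ET-3, and Zmat5, a protein of the minor spliceosome, had the lowest, with -0.58 under ET-3. In the list of the PRP19 complex, helicases and step factors, 12 of 25 rose and 2 fell under ET-3, and 14 rose and 1 fell under NT. Ddx41 led with 0.72 and 0.64. Among other RNA-binding splicing regulators, 19 of 32 rose and 4 fell under ET-3, and 11 rose and 7 fell under NT. Ptbp1, the polypyrimidine tract binding repressor of many tissue-specific exons, stood at 851 and 831 scaled reads in DMSO, at 1649 and 1562 under ET-3 and at 1400 and 1328 under NT. The 3 groups did not overlap, and its log2 fold changes were 0.93 and 0.70 with -0.23 between the ligands (adjusted p = 0.0420, limma). Qk, known for muscle splicing, fell from 2652 and 2695 to between 1938 and 2049 in the treated libraries (log2 fold changes -0.41 and -0.45).

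Promoters were read from RefSeq (build GRCm38.p6), which gave windows from 250 bases before to 50 after the start for 60 of the 72 members, 81 windows in all. The core promoter motifs of these housekeeping genes were described on both strands. The ETS motif CCGGAAG was in 30.9% of the members' windows, against 8.86% of all promoters and 11.6% of those of protein-coding genes. E2F (TTCCCGCC) was in 12.3% against 2.19% and 2.85%, the GC box (GGGCGG) in 63.0% against 35.7% and 46.2%, and the CCAAT box in 48.1% against 37.4% and 38.2%. The TATA box (TATAAA) was in 9.88% against 13.6% and 12.6%, NRF1 (GCATGCGC) in 4.94% against 2.71% and 3.51%, and YY1 (AAGATGGCG) in 2.47% against 1.40% and 1.83%. Windows of 1 gene can overlap each other and GC boxes overlap other GC-rich motifs. By family, CCAAT was in 64.3% of 28 hnRNP windows and 39.6% of 53 windows of the other members, and ETS in 14.3% and 39.6%. These shares are descriptions, with no test, and a match is not a bound site.

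The 100 bases before the start are shown for 6 members named above, to let the promoters of genes that rose, of the lone SR protein that fell under NT and of the abundant hnRNPs be read side by side. They were chosen after their values were seen, from members with 1 window and no annotated exon in these bases. Each runs 5′ to 3′ on the strand of the gene, with the letters of the motifs above in capitals. Prpf4 lies at chr4:62408683-62408782 (plus), Srsf9 at chr5:115327077-115327176 (plus), Srsf5 at chr12:80945399-80945498 (plus), Hnrnpa1 at chr15:103240297-103240396 (plus), Hnrnpab at chr11:51606882-51606981 (minus) and Hnrnpa0 at chr13:58128557-58128656 (minus).
Prpf4: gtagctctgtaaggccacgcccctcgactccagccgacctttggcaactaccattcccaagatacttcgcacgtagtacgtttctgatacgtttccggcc
Srsf9: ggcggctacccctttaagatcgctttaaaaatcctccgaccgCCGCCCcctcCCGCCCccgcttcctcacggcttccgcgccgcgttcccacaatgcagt
Srsf5: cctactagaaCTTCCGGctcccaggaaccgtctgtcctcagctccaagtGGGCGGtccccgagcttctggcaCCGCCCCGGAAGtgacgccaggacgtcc
Hnrnpa1: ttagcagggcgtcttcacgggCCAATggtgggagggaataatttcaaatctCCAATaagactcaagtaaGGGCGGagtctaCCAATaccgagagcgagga
Hnrnpab: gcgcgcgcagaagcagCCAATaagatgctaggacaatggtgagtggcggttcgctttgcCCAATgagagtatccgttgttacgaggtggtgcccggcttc
Hnrnpa0: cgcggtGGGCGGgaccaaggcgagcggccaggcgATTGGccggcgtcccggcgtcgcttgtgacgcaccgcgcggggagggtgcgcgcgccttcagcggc

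Prpf4, which rose most under NT, held 0 of the 7 motifs in these bases, and Srsf9 held 2 GC boxes. Srsf5 held 2 ETS motifs and 2 GC boxes, of which the last ETS motif and GC box overlap. The 3 hnRNPs shown each held a CCAAT box, read as ATTGG on the opposite strand in Hnrnpa0, with 3 in Hnrnpa1 and 2 in Hnrnpab. Hnrnpd, Prpf8 and Srsf2 met the same rule and are not shown. Hnrnpd held 2 GC boxes and no CCAAT box, whereas Prpf8 and Srsf2 each held a CCAAT box. The stretches shown therefore do not set hnRNPs apart from the other members. Sf3b4 and Prpf18 had no entry in the promoter table used here.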

How the data were processed

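The 6 RNA-seq libraries came from FACS-purified MuSCs cultured with the solvent or either ligand. Per the labels, the submitters' processing notes name Trimmomatic 0.38, STAR 2.7.7a, featureCounts 1.6.5, DESeq2 1.30.0 and mm10. The labels and the methods of the study name different library kits, and the labels' kit does not mark strand. The deposited signal of a gene is a read count that the authors multiplied by 1 factor per library and rounded. It is not a raw count. Genes were matched to GENCODE M21 for positions and exonic length (18920 of 18943).

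Values were tested with limma 3.58.1 in R 4.3.3 (lmFit, eBayes with a trend) on log2(value + 1) for genes with a mean of at least 5, all 6 libraries in 1 fit, with Benjamini-Hochberg adjustment over 13921 genes and a threshold of 0.05. The fit was tested on simulated data with fewer changed genes than are called here and with a fixed spread. That test does not measure the error rates in these data. Depth per library is given with the data, and the median standard error of a member's log2 fold change was 0.052. Alternatives covered the filter, scaling, pseudocount, a replicate block, 2 groups alone, averaged treated pairs, voom on recovered reads, removal of the coverage trend and each library left out. A count model was not run, because the values are scaled.

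The members, lists and tests were chosen with earlier results of these data known. Members were named by rule: in each family the highest and lowest mean of the ET-3 and NT log2 fold changes and the highest level per kb, over all families the 6 highest and 6 lowest means, any member past the 2-fold rule, and the 8 of lowest p among those called between NT and ET-3. In each related list the 2 highest and 2 lowest means were named. Other members named with values, such as Srsf4, Srsf7, Sf3b3 and Snrpd1, were chosen after their values were seen. Of the tested members, 1 is counted with the others but not reported or plotted here by itself. Tables and plots were made in Python 3.11.15 (matplotlib 3.10.9, numpy 2.4.6, pandas 2.3.3).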

Additional observations from a re-analysis of the deposited data

Results flagged for a closer look

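For 7 of the 67 tested members, both ET-3 libraries lay above and both NT libraries below both DMSO libraries, so that every library of 1 ligand moved one way and every library of the other the opposite way. Over all tested genes, 162 (1.16%) did so, and 72 (0.517%) showed the reverse. The log2 fold changes of NT against ET-3 were -0.24 for Hnrnpd, -0.15 for Hnrnpdl, -0.10 for Hnrnph2, -0.24 for Hnrnpk, -0.25 for Hnrnpm, -0.14 for Hnrnpul1 and -0.08 for Prpf38b. The difference between the ligands was called for Hnrnpd, Hnrnpk and Hnrnpm (adjusted p 0.0420, 0.0379 and 0.0379, limma) and not for the other 4. With equal library totals, the log2 fold changes under NT were 0.0065, 0.0256 and 0.003 for Hnrnpd, Hnrnpk and Hnrnpm. They were 0.0402, 0.0153 and 0.0562 for Hnrnph2, Hnrnpul1 and Prpf38b. The position of these genes below DMSO thus depends on the scaling. For Hnrnpdl the value on that scale was -0.0131 (adjusted p = 0.790, limma).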

How the results depend on the processing

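Over 68 values of named members, 1094 alternative values were computed, of which 857 kept direction and call, 204 lost the call, 15 gained it and 18 changed direction. After averaging the treated libraries, the counts became 13 higher and 1 lower under ET-3, 1 and 0 under NT, and 0 lower for NT against ET-3. With library totals, 37 were higher and 1 lower under NT, and the medians became 0.34 (ET-3) and 0.19 (NT). With the upper quartile, 4 were lower under NT. The 11 members lower under NT than ET-3 became 0 without a filter, 17 at a mean of at least 20, 4 at pseudocount 0.5, 0 with 2 groups alone, 20 with voom and 0 after removal of the coverage trend (median -0.0654). With 1 library left out, ET-3 gave 35 to 43 higher and 2 to 4 lower, NT 13 to 20 higher and 1 to 6 lower, and NT against ET-3 0 to 0. Without the first NT library 13 were higher and 3 lower under NT, without the second 1 was lower, and without either DMSO library 4 were lower. Without the second ET-3 library 2 were lower under ET-3.

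The replicate block gave 48 and 4 under ET-3, 23 and 6 under NT, and 0 for NT against ET-3. The replicate numbers did not pair the libraries (correlations of deviations -0.01, -0.07 and -0.02).

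Direction changed with library totals under NT for Hnrnpa2b1 (0.0932), Hnrnpd (0.0065), Hnrnpk (0.0256) and Hnrnpm (0.003), with the upper quartile for Hnrnpa2b1 (0.0232), and under ET-3 for Prpf19 (0.0485 and 0.0007). With 1 library left out, values spanned 0 under NT for Hnrnpa2b1 (-0.0705 to 0.0308), Hnrnpab (-0.0084 to 0.0766), Hnrnpc (-0.0359 to 0.0439), Snrpb (-0.0226 to 0.0606) and U2af1 (-0.0068 to 0.0382), and under ET-3 for Prpf19 (-0.0973 to 0.016) and Sf3b1 (-0.0078 to 0.0377). Of these values, Hnrnpm under NT alone had been called. Where a value changed for reasons other than fewer genes or samples, the cause was not tested. Counting error of 2.79% to 3.45% at 1000 scaled reads and 8.84% to 10.9% at 100 limits the precision of the low members most.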
